A study of Mus musculus with 6 samples.

Results

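Ion and calcium transport genes were followed in the lenses of W151C knock-in mice, whose βB2-crystallin has cysteine for tryptophan at codon 151, and of wild type mice. The 36 genes were listed by name and cover the sodium pump, chloride, potassium and acid-base transport, amino acid and vitamin C uptake, and the pumps, channels and sensors of calcium. Probes were matched to them by RefSeq accession, which found 35 of the 36 among 20659 named genes on the array. Ryr3 had no matched probe. A gene was tested where a probe was well above background on every array of at least 1 genotype, which held for 28 genes.

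All animals were 3 months old. The knock-in was made with CRISPR/Cas9, which placed a G to C substitution in the endogenous Crybb2 gene, and the labels give neither its zygosity nor the number of founder lines. Lens RNA labelled with Cy3 was measured on W151C arrays numbered 1, 2 and 4 and wild type arrays numbered 1, 2 and 3, giving 3 arrays a genotype. The number of animals behind each array is not stated, so p-values reflect only how these arrays varied, which may be technical.

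The lens has no blood vessels and keeps its clarity by an internal current of ions and water. The sodium pump of the epithelium and outer fibres drives that current, cotransporters of chloride and potassium set the volume of the fibre cells, and amino acids and vitamin C enter with sodium. Calcium is held low by pumps of the plasma membrane (PMCA) and of the endoplasmic reticulum (SERCA), and a rise in lens calcium, which activates calpain proteases, is a known accompaniment of cataract.

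All W151C arrays shared 1 scan, wild type arrays 1 and 2 shared another on the same day, and wild type array 3 was scanned on a different day. No scan held both genotypes, so scan, or the slide behind it, and genotype cannot be told apart. Spot signals had a 75th percentile of 167 to 201 on the W151C arrays, and of 142, 120 and 698 on wild type arrays 1, 2 and 3. Values below are log2 signals relative to that percentile of the same array, so that 1 unit is a 2-fold difference, and levels are not set against each other between genes. Of 28 transport genes, 5 lay more than 1 unit lower on wild type array 3 than the mean of the other wild type arrays, and over all genes 15.5% differed there by more than 1 unit in either direction. Lens fibre markers were all well above background (10 of 10 measured), with summed levels of 616 to 628 times the 75th percentile in W151C lenses and 924 to 2450 times in wild type lenses. Markers of photoreceptors stood apart on W151C array 4, with a summed level of 149.8 against 9.71 and 12.7 on W151C arrays 1 and 2 and 4.66 to 5.33 in wild type lenses.

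The comparison of W151C with wild type lenses asked which transport genes differ in transcript level. Of the 28 genes tested, 3 rose (Slc12a7, Atp2b1 and Trpc1) and 1 fell (Calm3) at an adjusted p of 0.05 by limma with Benjamini-Hochberg adjustment over 12785 genes. That is 14.3%, below the 25.9% called over all genes (13.3% higher and 12.6% lower). In 12 of the 28 genes, 8 above and 4 below, the W151C arrays did not overlap the wild type arrays, which is 42.9% against 45.9% over all genes. The median difference was -0.077 for the transport genes and -0.036 for all genes. Only Calm3 was called when slide was a random block, where 4.85% of all genes were. Since no slide held both genotypes, a call under that block does not separate genotype from slide.

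**Figure D1:**
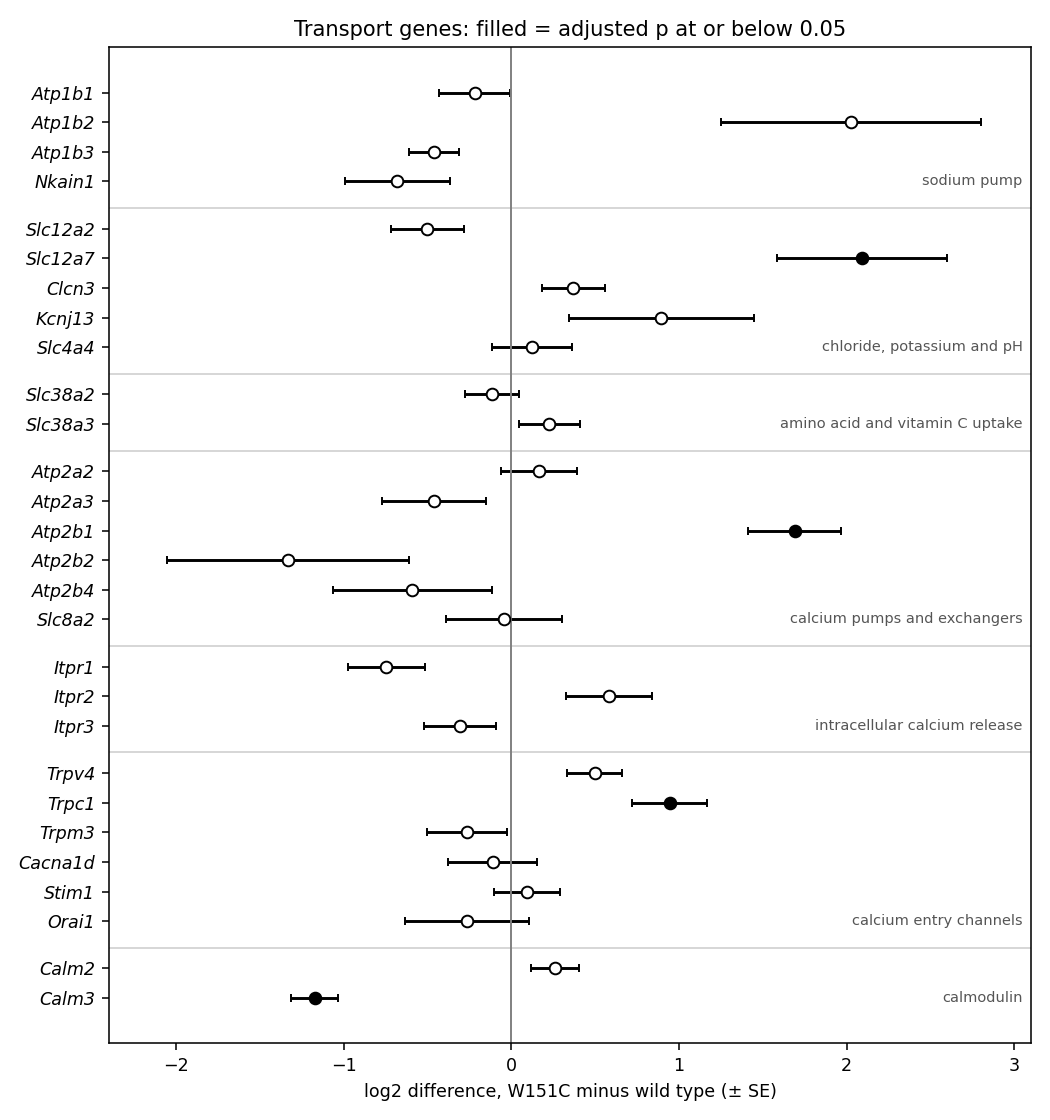
W151C minus wild type difference (log2, horizontal axis) of the 28 transport genes tested, grouped by role, with bars of 1 SE from limma (n = 3 arrays each). Filled points are the 4 genes past the test: Slc12a7, Atp2b1 and Trpc1 lie to the right of 0 and Calm3 to the left.

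Calm3, one of the genes that encode calmodulin, the calcium sensor that regulates calmodulin kinases, calcineurin and PMCA pumps, fell. Its log2 signals were 5.15, 5.15 and 5.12 on W151C arrays 1, 2 and 4, against 6.24, 6.33 and 6.37 on wild type arrays 1, 2 and 3. The arrays of each genotype lay close together and far from those of the other. The difference was -1.17 (SE 0.14, adjusted p = 0.00178, limma), a level 2.25-fold higher in wild type lenses. A second Calm3 probe differed by -1.14 (adjusted p = 0.00507 over the 21076 probes kept). The call held in the 16 alternatives to the fit, with differences from -1.36 to -0.82 and adjusted p from 0.00119 to 0.0356. Lens fibre markers fell beside it (7 of 10 tested, none higher), where 12.6% of all genes fell. The part of these markers in the Calm3 values was not tested. In whole lenses fewer fibre cells and less RNA per cell cannot be told apart.

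Calm2, the other calmodulin gene listed, encodes the same protein. It had 5.32, 5.33 and 5.24 in W151C lenses, against 4.96, 5.03 and 5.12 in wild type lenses. Its arrays did not overlap, but the difference of 0.26 (SE 0.14, adjusted p = 0.22, limma) did not pass. Quantile normalization raised it to 0.58 (adjusted p = 0.0351).

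Atp2b1, the PMCA pump found in most tissues, rose. Its log2 signals were -2.03, -2.32 and -1.66 on the W151C arrays, against -3.82, -4.06 and -3.20 on the wild type arrays. Every W151C array lay above every wild type array, and the difference was 1.69 (SE 0.28, adjusted p = 0.00625, limma), or 3.22-fold. The probe was well above background on 1 of the wild type arrays, so the size of the rise is set partly against background. A second probe, not tested, was well above background on 1 array of each genotype only, so its difference of 2.52 is set mostly against background. The rise was not called when slide was a random block (1.61, adjusted p = 0.0893) or with normexp background correction, which compresses dim signals (0.50, adjusted p = 0.289). Where signal was required on all arrays, Atp2b1 was not tested.

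Slc12a7, the potassium chloride cotransporter KCC4, which lets cells lose salt and shrink, rose. It had 0.17, -1.66 and -1.68 on W151C arrays 1, 2 and 4, against -3.28, -3.41 and -2.76 on wild type arrays 1, 2 and 3. W151C array 1 was well above the other 2, and the genotypes did not overlap. The difference was 2.09 (SE 0.51, adjusted p = 0.0243, limma), or 4.26-fold. Without W151C array 1 it was 1.48 (adjusted p = 0.0158). Without wild type array 1 or 2 it did not pass (2.03 and 1.97, adjusted p = 0.0697 and 0.0662), nor when slide was a random block (2.03, adjusted p = 0.282), without the filter on dim probes (adjusted p = 0.0593) or with normexp (0.94, adjusted p = 0.105).

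W151C array 1 was also the highest for the myeloid adaptor Tyrobp (-0.25, -2.46 and -2.38 on W151C arrays 1, 2 and 4) and the macrophage complement gene C1qc (1.52, -0.39 and -0.56), both lower on every wild type array. These are picked from a list whose members differ in direction. Of 7 leukocyte markers tested, 2 rose and 1 fell, where 13.3% and 12.6% of all genes did. Those that rose were Tyrobp and C1qc, which passed the filter through the W151C arrays alone, and Itgam fell (-1.65). Of those not called, C1qb and Cd14 were lower (-0.86 and -0.31) and C1qa and Csf1r higher (2.02 and 0.79). The summed level of the 11 measured was 9.03 to 18.1 in W151C lenses and 12.4 to 39.6 in wild type lenses, and Lyz2 was at background throughout. Itgam, the brightest of them, made up most of the sum, and without it the level was 2.72 to 8.04 in W151C lenses and 0.982 to 2.59 in wild type lenses, the opposite direction. The part of such cells in the Slc12a7 values was not tested.

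Trpc1, a subunit of cation channels that admit calcium, rose. It had -1.49, -1.47 and -1.11 in W151C lenses, against -2.25, -2.67 and -1.98 in wild type lenses. The genotypes did not overlap, and the difference was 0.94 (SE 0.22, adjusted p = 0.023, limma), or 1.92-fold. Leaving out single arrays ended the call, with adjusted p from 0.0514 to 0.0744 without W151C 1, W151C 2, W151C 4, wild type 1 or wild type 2, and differences from 0.76 to 1.01. The call was also lost when slide was a random block (0.89, adjusted p = 0.234), without the filter on dim probes (adjusted p = 0.0678) or with normexp (0.48, adjusted p = 0.206).

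**Figure D2:**
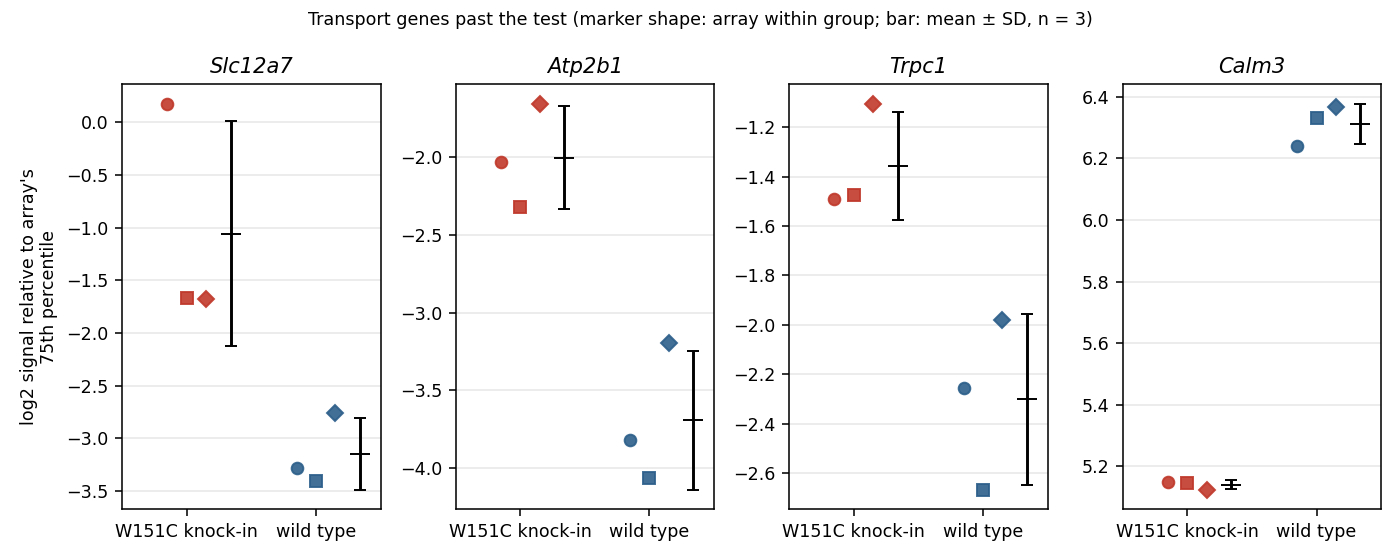
Log2 signal relative to the array's 75th percentile (vertical axis, a separate scale per gene) for the 4 transport genes past the test, with W151C arrays in red and wild type arrays in blue, marker shape giving the array and bars the mean ± SD (n = 3). Slc12a7 is highest on W151C array 1 at 0.17, and Calm3 shows no overlap, with 5.12 to 5.15 in W151C and 6.24 to 6.37 in wild type lenses.

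The 4 genes that passed have promoters in a RefSeq table of build GRCm38.p6, and the 250 bases before each gene's most upstream listed start are printed to show what sequence lies there, 5′ to 3′ on the gene's strand. They were searched on both strands for the GC box (GGGCGG), the CCAAT box (CCAAT), the AP-1 element (TGANTCA), the cAMP response element (TGACGTCA), the C/EBP-ATF composite element (TGATGNAA) and the SMAD box (GTCTAGAC). None of these motifs contains another. Capitals mark the matches, all of them GC boxes.
Slc12a7: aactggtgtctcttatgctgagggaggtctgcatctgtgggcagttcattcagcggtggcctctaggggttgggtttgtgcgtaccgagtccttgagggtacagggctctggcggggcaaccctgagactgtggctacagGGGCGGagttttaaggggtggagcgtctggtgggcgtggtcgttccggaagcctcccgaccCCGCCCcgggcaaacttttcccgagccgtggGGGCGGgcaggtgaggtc
Atp2b1: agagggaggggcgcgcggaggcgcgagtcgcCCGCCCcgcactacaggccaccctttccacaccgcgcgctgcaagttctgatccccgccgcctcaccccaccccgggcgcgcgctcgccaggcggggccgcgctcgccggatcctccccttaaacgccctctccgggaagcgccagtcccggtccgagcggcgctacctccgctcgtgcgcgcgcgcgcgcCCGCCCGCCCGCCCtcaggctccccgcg
Trpc1: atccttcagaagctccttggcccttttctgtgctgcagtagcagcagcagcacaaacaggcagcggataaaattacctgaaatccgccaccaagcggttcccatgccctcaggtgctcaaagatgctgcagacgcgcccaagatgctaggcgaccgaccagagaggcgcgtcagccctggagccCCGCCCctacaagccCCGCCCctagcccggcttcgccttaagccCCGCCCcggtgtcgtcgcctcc
Calm3: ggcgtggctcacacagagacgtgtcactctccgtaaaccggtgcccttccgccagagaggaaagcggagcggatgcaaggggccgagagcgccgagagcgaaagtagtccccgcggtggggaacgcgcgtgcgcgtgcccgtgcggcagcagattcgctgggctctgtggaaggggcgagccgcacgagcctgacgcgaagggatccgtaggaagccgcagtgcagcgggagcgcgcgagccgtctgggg

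The windows lie at chr13:73763410-73763659 on the plus strand for Slc12a7, chr10:98914392-98914641 on the plus strand for Atp2b1, chr9:95750349-95750598 on the minus strand for Trpc1 and chr7:16924033-16924282 on the minus strand for Calm3. Their GC content was 63.6%, 78.4%, 62.8% and 69.2% in that order, against a median of 52.4% over 32851 promoter windows. The GC box occurred 3 times in Slc12a7, 4 times in Atp2b1, where some matches overlap, and 3 times in Trpc1, and no searched motif matched in Calm3. Of the 36 transport genes, 28 had a listed promoter, 22 of them among the genes tested, with 40 windows in all. A GC box lay in 24 of the 40 windows (60.0%), against 32.7% of all windows. A CCAAT box lay in 13 of the 40 (32.5%), near the 33.8% of all windows, and the C/EBP-ATF element in 1 of the 40, against 3.45%. The AP-1 element, the cAMP response element and the SMAD box were in none of the 40 (6.75%, 1.55% and 0.167% of all windows).

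None of the 4 tested genes of the sodium pump passed. The pump exports sodium and imports potassium, and its β subunits carry the catalytic α subunit to the membrane. Atp1b3 had 4.80, 5.02 and 5.004 in W151C lenses, against 5.33, 5.42 and 5.45 in wild type lenses. All W151C arrays were lower, and the difference of -0.46 (SE 0.15, adjusted p = 0.0621, limma) lay just outside the threshold. It passed in 2 of the 16 alternatives to the fit. With quantile normalization it was -0.12 (adjusted p = 0.657) and with normexp -0.22 (adjusted p = 0.497), so its size depended on the scaling and background correction. Atp1b1 differed by -0.22 (SE 0.21, adjusted p = 0.473, limma), and its arrays overlapped.

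Atp1b2, the β2 subunit known from glia and photoreceptors, had -0.57, -1.15 and 2.07 on W151C arrays 1, 2 and 4, against -2.02, -1.55 and -2.16 on wild type arrays 1, 2 and 3. All W151C arrays were higher, with array 4 far above the other 2. The difference was 2.03 (SE 0.77, adjusted p = 0.0972, limma) and did not pass, although it did with arrays centred on the median (1.99, adjusted p = 0.006). Without W151C array 4 it was 1.05 (adjusted p = 0.0545), and without that array and wild type array 3 it was 0.92 (adjusted p = 0.0424).

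W151C array 4 was the array rich in photoreceptor transcripts. Prph2, a protein of photoreceptor discs, had -0.14, 0.88 and 5.51 on W151C arrays 1, 2 and 4 and -2.28, -2.59 and -2.39 on the wild type arrays. Among 14 retina markers, 6 were well above background on all W151C arrays and 3 on all wild type arrays. Of the 6 tested, 3 rose (Nrl, Pdc and Prph2), against 13.3% of all genes. Gnat1, Nrl and Pdc passed the filter through the W151C arrays alone, so the filter favoured a higher difference. The part of retinal RNA in the Atp1b2 values was not tested.

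Nkain1, a membrane protein that binds the pump's β subunit, differed by -0.68 (SE 0.31, adjusted p = 0.153, limma). The wider sodium pump list held 15 further genes, of which 8 were tested, 2 rose, 3 fell and 3 did not pass, with a median of -0.25. Beside this and each later list, 13.3% of all genes rose and 12.6% fell. Fxyd5, a small modulator of the pump, was at least 6.44-fold higher in W151C lenses (adjusted p = 0.000174, limma) and was not well above background in wild type lenses. Such a bound sets the bright genotype against the lowest signal well above background on each dim array, or the probe's own signal where higher. It applies to these processed signals only. It is not a detection limit, since some probes brighter than that lowest signal were not well above background. Fxyd6 rose by 1.42 (SE 0.30). Fxyd2, the γ subunit that modulates the pump in kidney, fell, with -0.76, -0.96 and -1.03 in W151C lenses and 3.74, 3.73 and 1.00 in wild type lenses, a difference of -3.74 (SE 0.70, adjusted p = 0.00999, limma). Nkain2 fell by 0.94 (SE 0.18), and Fxyd3, not well above background in W151C lenses, passed with a difference of -1.05 and no usable bound. The Fxyd3 difference changed sign with normexp. Leaving out single arrays ended the calls of Fxyd6 (adjusted p = 0.0543 to 0.0552 without W151C 2 or W151C 4), Fxyd3 (0.0525 without W151C 2) and Nkain2 (0.055 without W151C 2).

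**Figure D3:**
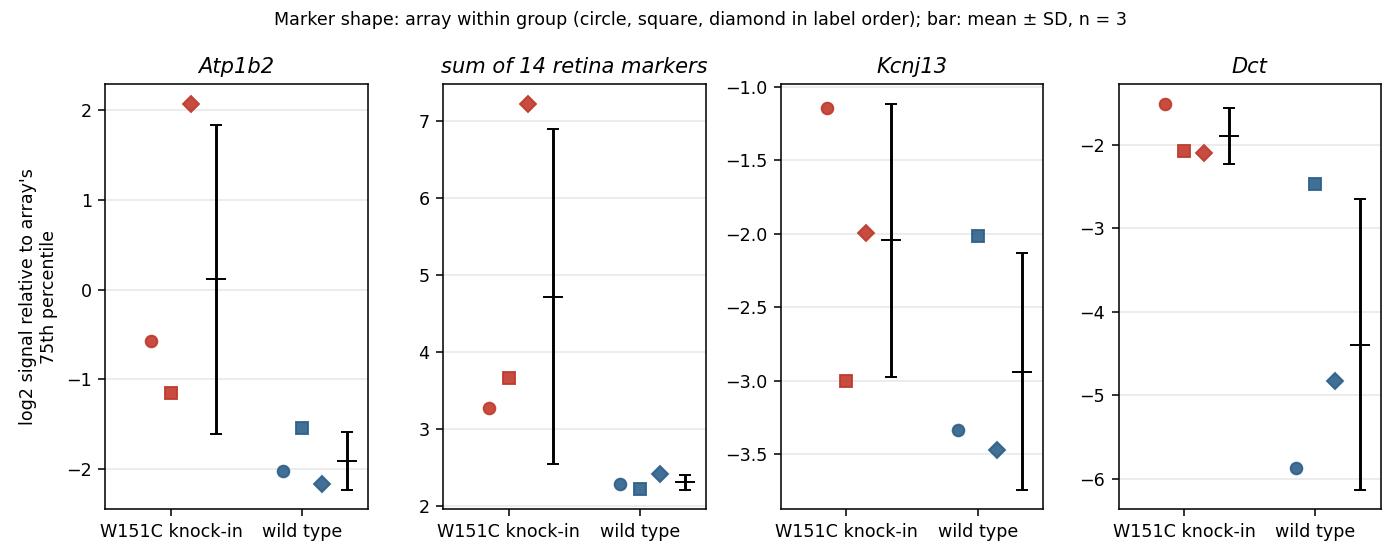
Log2 signal relative to the array's 75th percentile (vertical axis, a separate scale per panel) of Atp1b2, of the sum of 14 retina markers, of Kcnj13 and of the pigment cell gene Dct, with W151C arrays in red, wild type arrays in blue, marker shape giving the array and bars the mean ± SD (n = 3). W151C array 4 is highest for Atp1b2 and for the retina markers, and wild type array 2 is the highest wild type array for Kcnj13 and Dct.

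Besides Slc12a7, none of the other 4 tested genes for chloride, potassium and acid-base transport passed. Slc12a2, the sodium potassium chloride cotransporter NKCC1 that loads cells with salt, had 2.04, 2.28 and 2.78 in W151C lenses, against 2.85, 2.79 and 2.97 in wild type lenses. The arrays did not overlap by a small margin, and the difference was -0.50 (SE 0.22, adjusted p = 0.133, limma). Without W151C array 4 it was -0.71 (adjusted p = 0.0462). Clcn3, an endosomal chloride proton exchanger, differed by 0.37 (SE 0.19, adjusted p = 0.189, limma), with all W151C arrays higher. Slc4a4, the sodium bicarbonate cotransporter NBCe1, differed by 0.12 with the probe that represents it (adjusted p = 0.739). Its other 2 probes differed by 0.61 and 0.48 (adjusted p = 0.0424 and 0.0728 over all probes kept), so the probes disagree on the call.

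Kcnj13, the inward rectifier channel Kir7.1 of retinal pigment and choroid plexus epithelium, had -1.14, -3.001 and -1.997 on W151C arrays 1, 2 and 4, against -3.34, -2.01 and -3.47 on wild type arrays 1, 2 and 3. The genotypes overlapped, and the difference was 0.89 (SE 0.55, adjusted p = 0.272, limma). The pigment cell gene Dct had -1.51, -2.07 and -2.10 on the W151C arrays and -5.88, -2.47 and -4.82 on the wild type arrays. Both were highest on W151C array 1 and, among wild type arrays, on array 2, with Dct well above background on 1 wild type array. Dct was chosen after its values were seen and did not pass (adjusted p = 0.0555, limma). Of 13 markers of pigmented eye epithelia, Oca2, Tyr and Tyrp1 were well above background on all 6 arrays, and Best1, Lrat and Slc45a2 on none. None of the 5 tested rose, and Oca2 fell, with -0.30, 0.29 and 0.51 in W151C lenses and 2.05, 1.97 and 1.92 in wild type lenses. The summed level of the 13 was 2.76 to 4.67 in W151C and 4.51 to 5.56 in wild type lenses. Without Oca2 it was 1.54 to 3.25 in W151C and 0.724 to 1.64 in wild type lenses, so the direction of the sum rests on that gene. The part of such tissue in the Kcnj13 values was not tested. Kcna1, a voltage-gated potassium channel, was not well above background on any array.

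Of 18 further potassium channel genes tested among 48 listed, 2 rose, 5 fell and 11 did not pass (median -0.57). Kcnd3, an A-type potassium channel, rose by 2.16 (SE 0.23, adjusted p = 0.00118, limma), with 1.60, 2.05 and 2.04 in W151C lenses and -0.045, -0.079 and -0.67 in wild type lenses. Kcnma1, the large-conductance calcium-activated channel, fell by 1.98 (SE 0.31) with 1 W151C array above background, and Kcne4, an accessory subunit not well above background in W151C lenses, was at least 2.53-fold lower. Kcna5 rose by 0.85 (SE 0.23). The calls of Kcna5 (adjusted p = 0.107 to 0.141 without W151C 2, W151C 4, wild type 1 or wild type 2) and Kcne4 (0.0558 without W151C 4) were lost on leaving out single arrays.

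Of 26 further genes of chloride transport and volume control tested among 38 listed, 9 rose, 4 fell and 13 did not pass (median 0.15). Ttyh2, of the tweety family, rose by 2.12 (SE 0.18, adjusted p = 0.000474, limma), Clic1, a chloride intracellular channel protein, by 0.90 (SE 0.15) and Ano1, a calcium-activated chloride channel, by 2.79 (SE 0.45). Ttyh2 was well above background on 2 wild type arrays and Ano1 on 1. Clic5, of the same family as Clic1, fell by 2.32 (SE 0.28, adjusted p = 0.00193, limma). Stk39, the kinase SPAK that activates NKCC1, fell by 0.87 (SE 0.17), and its call was lost without wild type 1 (adjusted p = 0.0505).

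Acid-base genes divided evenly, with 4 higher, 4 lower and 16 not past the test among 24 tested of 38 listed (median 0.20). Slc9a3r1, a scaffold protein of sodium proton exchangers, rose by 1.98 (SE 0.31), with 1 wild type array above background. Car2, a cytosolic carbonic anhydrase, rose, with 3.66, 3.30 and 2.75 in W151C lenses and 2.06, 1.95 and 2.10 in wild type lenses (difference 1.20, SE 0.24, adjusted p = 0.0132, limma). Car8, a related protein without the enzyme's activity and at background in W151C lenses, was at least 2.35-fold lower. Car14, a membrane carbonic anhydrase, fell by 0.75 (SE 0.18) and Slc16a3, the lactate transporter MCT4, by 0.71 (SE 0.17). Single arrays ended the calls of Car2 (adjusted p = 0.0597 without W151C 2), Car14 (0.0619 to 0.0919 without W151C 2, W151C 4, wild type 1 or wild type 2) and Slc16a3 (0.0755 to 0.0885 without W151C 2, wild type 1 or wild type 2).

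Neither tested amino acid transporter among the 36 genes passed. Slc38a2, a sodium-coupled transporter of small neutral amino acids that many cells induce on amino acid shortage, had 3.40, 3.37 and 3.21 in W151C lenses and 3.56, 3.26 and 3.50 in wild type lenses. The arrays overlapped, with a difference of -0.12 (SE 0.16, adjusted p = 0.631, limma). Slc38a3, a glutamine transporter, differed by 0.23 (SE 0.18, adjusted p = 0.396, limma). Slc23a2, the sodium-dependent vitamin C transporter SVCT2, was well above background on 2 arrays of each genotype and did not pass the filter, with -3.04, -2.90 and -3.01 in W151C lenses and -3.30, -3.59 and -2.60 in wild type lenses.

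Of 25 further uptake genes tested among 37 listed, 7 rose, 1 fell and 17 did not pass (median 0.33). Slc7a3, a transporter of arginine and lysine, rose, with 0.57, 1.04 and 1.06 in W151C lenses and -3.13, -3.14 and -3.19 in wild type lenses. Its difference of 4.04 (SE 0.18, adjusted p = 5.24e-05, limma) was also called when slide was a random block (adjusted p = 0.00145). Slc7a1, of the same family, rose by 1.49 (SE 0.27), and Slc7a7, which exchanges cationic for neutral amino acids, by 1.22 (SE 0.28). Slc5a3, the sodium myo-inositol cotransporter that takes up an osmolyte, fell by 0.76 (SE 0.23, adjusted p = 0.047, limma). The calls of Slc7a7 (adjusted p = 0.0553 to 0.0759 without W151C 1, W151C 2 or W151C 4) and Slc5a3 (0.0562 to 0.158 without any one array other than W151C 4) were lost on leaving out single arrays.

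Among calcium pumps and exchangers, Atp2b1 was the single gene of 6 to pass. Atp2a2, the SERCA pump of most cells, differed by 0.16 (SE 0.23, adjusted p = 0.628, limma) with its brighter probe, and by 0.74 (SE 0.16, adjusted p = 0.0175 over all probes kept) with the other. The second Atp2a2 probe had -1.42, -1.48 and -1.28 in W151C lenses and -2.01, -2.22 and -2.17 in wild type lenses. Atp2a1, the SERCA pump of skeletal muscle, was well above background on 1 wild type array and did not pass the filter. Slc8a1, the sodium calcium exchanger NCX1, was well above background on wild type arrays 1 and 2 and on no W151C array. It entered the test where wild type array 3 was left out, with a difference of -0.61 (adjusted p = 0.0205, limma). There it passed the filter through the wild type arrays alone, so the filter favoured a lower difference, set partly against background. With all arrays and no filter on dim probes its difference was -0.10 (adjusted p = 0.891, limma).

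Without wild type array 3, 6 genes passed as lower that did not pass with it and had that array among or below the W151C arrays. They were Nkain1, Atp2a3, Atp2b2, Atp2b4, Slc8a2 and Orai1, singled out after their values were seen. Atp2b2, a PMCA pump known from neurons and sensory hair cells, had -0.63, -1.57 and -0.71 in W151C lenses, against 1.17, 1.33 and -1.42 on wild type arrays 1, 2 and 3. Wild type array 3 lay among the W151C arrays and the other 2 far above them. The difference was -1.33 (SE 0.72, adjusted p = 0.215, limma), and -2.22 (SE 0.30, adjusted p = 0.00305) without wild type array 3. Centring arrays on the median also brought it past the test (-1.37, adjusted p = 0.0267).

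Atp2b4, a PMCA pump of red cells and many tissues, had 0.26, 0.053 and -0.14 in W151C lenses, against 1.08, 1.39 and -0.52 in wild type lenses, so that array 3 lay below every W151C array. Its difference was -0.59 (adjusted p = 0.394), and -1.18 (adjusted p = 0.0042) without that array. Its second kept probe, for which wild type array 3 lay with the others at -2.07, -1.81 and -1.97 against -3.85, -3.17 and -2.58 in W151C lenses, differed by -1.25 (adjusted p = 0.03 over all probes kept). That probe was well above background on 2 W151C arrays and passed the filter through the wild type arrays alone, so the filter favoured a lower difference. Atp2a3, a SERCA pump of blood and some epithelial cells, differed by -0.46 (adjusted p = 0.307), and by -0.82 (adjusted p = 0.00666) without wild type array 3.

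Slc8a2, the exchanger NCX2, had -1.81, -1.88 and -1.61 in W151C lenses, against -1.37, -1.25 and -2.54 in wild type lenses. It differed by -0.042 (adjusted p = 0.941), and by -0.45 (adjusted p = 0.046) without wild type array 3. Orai1, the pore of store-operated calcium channels, had -0.67, -0.61 and -0.87 in W151C lenses, against -0.069, 0.062 and -1.35 in wild type lenses. Its difference was -0.27 (adjusted p = 0.636), and -0.71 (adjusted p = 0.0103) without that array. Nkain1 had 0.0036, -0.48 and -0.40 in W151C lenses and 0.58, 0.86 and -0.28 in wild type lenses, and its difference without wild type array 3 was -1.01 (adjusted p = 0.00909).

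Without wild type array 3, 9 transport genes of 29 tested were lower and 3 higher, where 24.4% of all genes were lower and 2476 of 13064 higher. The 9 were these 6, Calm3, Slc8a1 (tested through the wild type arrays alone) and Atp1b3 (-0.43, adjusted p = 0.0463). With scan day as a block, which also sets the W151C arrays against wild type arrays 1 and 2, 8 were lower, against 24.0% of all genes.

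**Figure D4:**
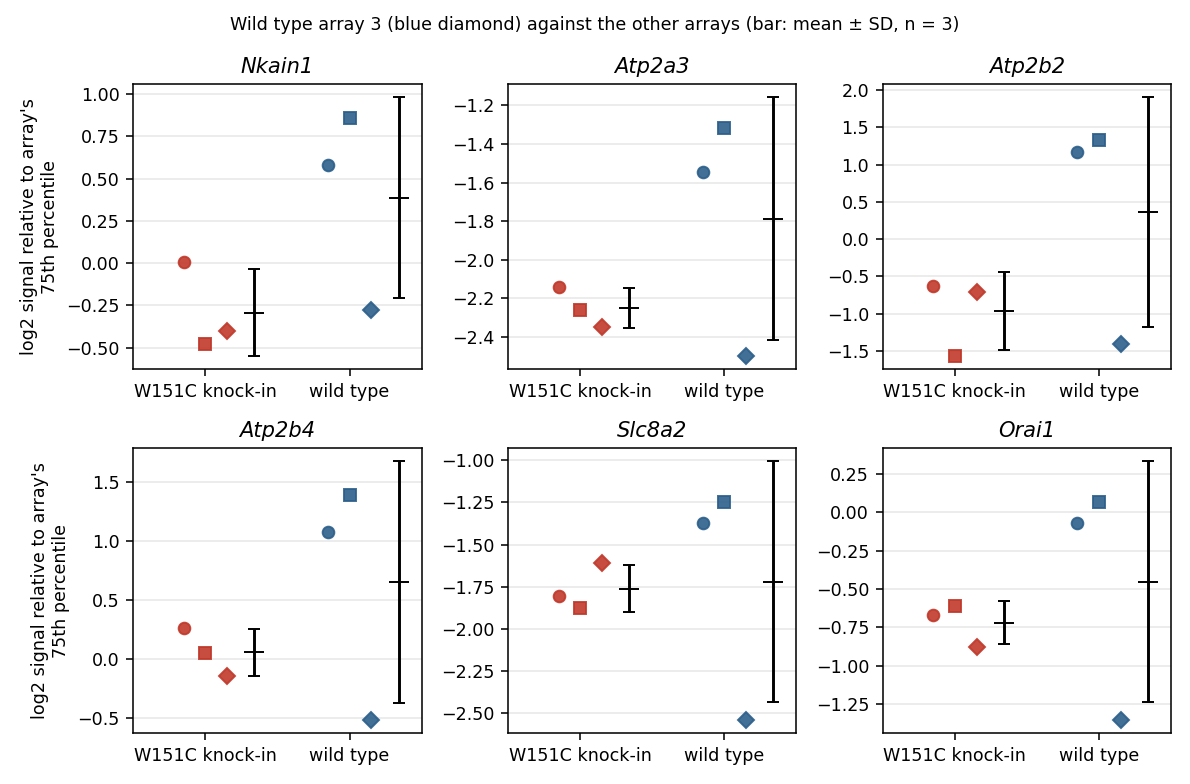
Log2 signal relative to the array's 75th percentile (vertical axis, a separate scale per gene) of 6 transport genes, with W151C arrays in red, wild type arrays in blue, marker shape giving the array and bars the mean ± SD (n = 3). Wild type arrays 1 and 2 lie above every W151C array in each panel, while wild type array 3 (diamond) lies among or below them, as at -1.42 for Atp2b2.

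No calcium release channel of the endoplasmic reticulum passed. Itpr1, an inositol trisphosphate receptor, had 1.42, 2.11 and 2.17 in W151C lenses, against 2.61, 2.63 and 2.69 in wild type lenses. All W151C arrays were lower, and the difference of -0.75 (SE 0.23, adjusted p = 0.0514, limma) lay at the threshold. Itpr2 differed by 0.58 (SE 0.26, adjusted p = 0.138, limma), with all W151C arrays higher, and Itpr3 by -0.31 (SE 0.22, adjusted p = 0.333, limma), with overlap. The ryanodine receptors, the release channels of muscle and neurons, gave no test: Ryr1 was not well above background on any array and Ryr2 on 1 wild type array only.

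Besides Trpc1, none of the other 5 tested calcium entry genes passed. Trpv4, a cation channel that opens on cell swelling, had -0.21, 0.11 and 0.039 in W151C lenses, against -0.43, -0.45 and -0.66 in wild type lenses. All W151C arrays were higher, and the difference was 0.50 (SE 0.17, adjusted p = 0.066, limma). The other Trpv4 probe differed by 0.60 (adjusted p = 0.0313 over all probes kept), and the mean of both passed (0.55, adjusted p = 0.0318). Trpm3, a cation channel highly expressed in lens and pigment epithelium, differed by -0.27 (SE 0.24, adjusted p = 0.45, limma), with overlap. Its mean was lower with each of its 3 probes (-0.19 to -0.48). The largest of these rested on wild type array 3, at 1.69 against 0.43 and 0.35 on wild type arrays 1 and 2. Stim1, the calcium sensor of the endoplasmic reticulum that opens Orai1, differed by 0.091 (SE 0.20, adjusted p = 0.767, limma).

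Cacna1d, an L-type calcium channel, differed by -0.11 (adjusted p = 0.787, limma) with its brighter probe and by -1.30 (SE 0.24, adjusted p = 0.0101 over all probes kept) with the other. The second probe had -3.23, -3.28 and -2.90 in W151C lenses and -1.96, -2.15 and -1.42 in wild type lenses, and was well above background on 1 W151C array. It passed the filter through the wild type arrays alone, so the filter favoured a lower difference. Cacna1c, the other L-type channel listed, was not well above background on any array.

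The wider calcium handling list had 51 tested genes of 89 listed, with 8 higher, 8 lower and 35 not past the test (median -0.13). P2rx7, an ATP-gated cation channel of macrophages and other cells, was at least 3.59-fold higher in W151C lenses (adjusted p = 0.000225, limma) and at background in wild type lenses. Mcub, an inhibitory subunit of the mitochondrial calcium uniporter, rose by 3.07 (SE 0.25) with 1 wild type array above background. P2rx4, a related ATP-gated channel, rose by 1.01 (SE 0.15, adjusted p = 0.00484, limma). Slc24a3 and Slc24a2, sodium calcium exchangers that also carry potassium, fell by 1.55 (SE 0.19) and 1.98 (SE 0.31). Slc24a2 was well above background on 2 W151C arrays and passed the filter through the wild type arrays alone. Casq1, the calcium-binding protein of muscle stores, fell by 1.68 (SE 0.24, adjusted p = 0.00351, limma). Skeletal muscle markers, of which Casq1 is one, were lower in 4 of 4 tested among 12 listed, where 12.6% of all genes were lower. Only Acta1 of the 4 was well above background on all 6 arrays. Casq1, Tnnc2 and Ckm passed the filter through the wild type arrays alone, so the filter favoured a lower difference. Summed levels were 1.56 to 2.55 in W151C and 3.91 to 4.38 in wild type lenses. The muscle genes Mb, Myh1, Myh2, Myh4 and Myl1 were at background throughout.

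Over the 6 wider lists together, 32 genes rose and 25 fell of 152 tested, or 37.5%, with a median of 0.017. Over all genes 25.9% were called. Among the genes named here from those lists, the calls that held when slide was a random block were those of Fxyd5, Kcnd3, Ttyh2, Clic5, P2rx7, Mcub, Slc24a3, Casq1 and Slc7a3. Of these, Fxyd5, Ttyh2, P2rx7 and Mcub lost their calls with normexp (differences of 1.28, 0.93, 1.01 and 1.01, adjusted p = 0.143, 0.0886, 0.234 and 0.0885). For Fxyd5 and P2rx7 the normexp differences are smaller than the bounds given above. Among the other genes named, Fxyd6, Nkain2, Kcna5, Kcnma1, Kcne4, Ano1, Slc9a3r1, Car8, Slc16a3, P2rx4, Slc7a7 and Slc5a3 also lost their calls with normexp. Fxyd3 changed sign there.

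**Figure D5:**
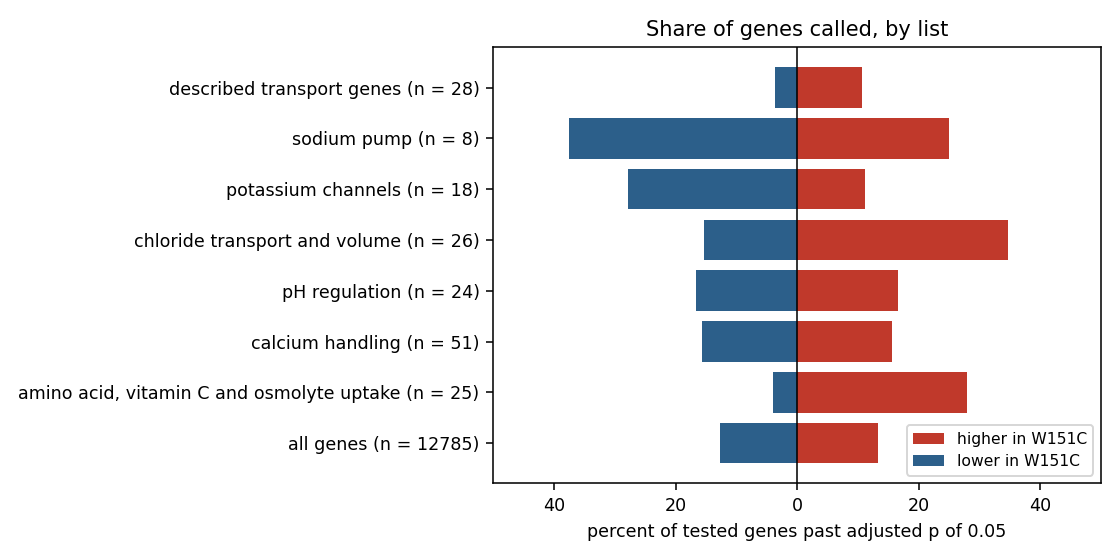
Share of tested genes called higher (red, to the right) or lower (blue, to the left) in W151C lenses at an adjusted p of 0.05 (horizontal axis, percent), for the 28 described transport genes, the 6 wider lists and all 12785 genes. The described genes have 3 calls higher and 1 lower, against 13.3% and 12.6% over all genes.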

How the data were processed

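RNA of 6 lens samples was hybridised to single-colour Agilent arrays, 1 array each. Each deposited file holds the scanner's spot intensities after background subtraction within the array, made with version 11.0.1.1 of Feature Extraction per the file headers. Version 9.1 is named in the submitters' processing notes, and no scaling across arrays is recorded there.

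The log2 of the processed signal minus the 75th percentile of the array over 43020 non-control spots was used. Spots marked as outliers were dropped, and replicate spots averaged per probe. Probes were kept where, in 1 genotype or both, every array had 50% or more of the probe's spots well above background (21076 of 39429 probes). Accessions were named through a RefSeq table of assembly GRCm38.p6 (27234 probes); the design refers to mm9 per the file headers, so no probe coordinates are given. The brightest probe stood for each of 12785 genes, tested across all genes with limma 3.58.1 in R 4.3.3 (4 residual degrees of freedom, Benjamini-Hochberg). An exact permutation test of 3 against 3 arrays cannot go below p = 0.1. Slides were taken from shared scan times.

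The 36 genes, the 6 wider lists and the 10 marker lists were chosen with earlier results of these data known. All 36 are accounted for, and each wider list gives up to 3 genes with the smallest p per direction among those that passed. Some genes of the wider and marker lists are not reported here. Normexp, an alternative, ran on median spot signals. Simulated data with known changes served to check the fit.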

Additional observations from a re-analysis of the deposited data

How the results depend on the processing

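Calls of transport genes depended on the settings, and the causes were not tested except where a smaller set of arrays is the setting itself. Against 3 higher and 1 lower transport genes, normexp gave 0 higher, no filter on dim probes 1 higher, and slide as a random block 0 higher and 1 lower. Quantile normalization, centring on the median, requiring signal on all arrays and averaging a gene's probes each gave 2 lower, and scan day as a block 8 lower. Requiring signal on all arrays also left Atp2b1 untested and gave 2 higher. Among all genes, normexp called 717 higher and 715 lower, no filter 1127 and 875, the random slide block 362 and 258, and scan day as a block 3066 lower. Among the other pathway genes, 21 were higher with median centring, normexp gave 7 higher and 10 lower, the random slide block 6 and 4, the all-array filter 16 lower and scan day as a block 44 lower. Median centring also put 40.9% of calls on the higher side, against 51.2% in the fit reported. Leaving out arrays gave 1 to 4 higher and 1 to 11 lower transport genes, 794 to 2670 and 744 to 3402 of all genes, and 14 to 38 and 13 to 51 other pathway genes. These ranges include the joint removal of W151C array 4 and wild type array 3, chosen after seeing the data, as were fitting each probe on its own and summing markers without the brightest of each list.

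Replicate numbers 1 and 2 are shared by the genotypes. Same-numbered arrays deviated with correlations of 0.168 and -0.216, against 0.217 and -0.181 for crossed numbers, which gives no sign of pairing. So few shared numbers cannot exclude it. With replicate block, 8 transport genes, 3112 of all genes and 48 other pathway genes were lower, from the 4 arrays that carry a shared number.

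Some differences changed sign, most of them small. Slc4a4 was -0.015 with scan day as a block, -0.15 with replicate block and -0.15 to 0.34 on leaving out arrays. Atp2a2 was -0.034 with normexp and -0.026 to 0.34 on leaving out arrays. Slc8a2 was 0.20 with normexp, 0.088 with the random slide block and -0.53 to 0.19 on leaving out arrays. Trpm3 was 0.080 with replicate block and -0.44 to 0.080 on leaving out arrays. Cacna1d was 0.16 with normexp and -0.42 to 0.037 on leaving out arrays. Stim1 was -0.058 with replicate block and -0.067 to 0.26 on leaving out arrays. Fxyd3, called lower in the fit reported (-1.05, adjusted p = 0.00945, limma), was 0.21 with normexp, so the direction of that call was not kept. With 3 arrays a genotype and dim signals for many channels, differences that missed the threshold are not shown to be absent.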
